A study of Homo sapiens with 5 samples.

Results

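LINC genes are long non-coding RNA (lncRNA) genes that carry a placeholder symbol, the letters LINC and a number, because they were annotated between protein-coding genes before a function was known. The members described here were all genes whose symbol in the deposited expression lists is LINC followed only by digits, so that antisense names ending in -AS were left out. There were 44 such genes among 2694 listed genes, and the choice used the name alone.

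Long intergenic non-coding RNAs are transcribed, capped and often spliced like messenger RNAs but are not translated into protein. Members of this class can act on the chromatin or the gene next to them, hold proteins together in the nucleus, or bind proteins and microRNAs in the cytoplasm, and most are present at a low level and in few cell types. In growth plate cartilage, chondrocyte hypertrophy is the late step in which the cells enlarge, remodel their collagen matrix under the transcription factor RUNX2 and prepare it for bone. Little is known of most LINC genes in this step.

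Total RNA was measured in TC28a2 cells, an immortalised line of normal human chondrocytes that stands here for chondrocytes in general, after 5 days in one of a pair of media. Growth medium (GM, n = 2 libraries) held 10% fetal bovine serum, and hypertrophic medium (HM, n = 3 libraries) held 1% serum and 1% of an insulin, transferrin and selenium supplement. Hypertrophic medium also held BMP-2 at 100 ng/ml and GDF-5 at 10 ng/ml, which are bone morphogenetic protein family ligands, triiodothyronine (T3) at 1 µM, ascorbic acid at 50 µg/ml, dexamethasone at 10 nM and β-glycerophosphate at 10 mM. Serum and these additives changed together, so their parts cannot be told apart. The study's methods speak of biological replicates for its experiments in general, but the labels do not say whether libraries of one medium came from separate cultures, so the p-values measure the spread between these libraries, which may be technical.

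Values were deposited per gene and library on a log2 scale after the authors' normalization. The kind of log2 transformation is not given in the sources used here, and most listed genes differ here by less than the fold threshold that the study states for its calls. A difference of 1 therefore stands for a doubling only if these are plain log2 values, and differences are given on the deposited scale. The depth of the libraries is unknown from such values. No listed gene differed between the media by less than 0.21 in size, so the lists appear to hold genes chosen for a difference between these same libraries, and a gene that is not listed may be unchanged or unmeasured. The medians over all listed genes were 8.17 and 8.18 in growth medium and 8.62, 8.52 and 8.43 in hypertrophic medium. Of 14 chondrocyte markers, the 5 listed (SOX9, COL2A1, ACAN, COL9A2 and COL9A3) were all higher in hypertrophic medium, and the log2 of their summed level was 12.06 and 12.03 in growth medium and 12.80 to 13.17 in hypertrophic medium. Of 10 markers of hypertrophic chondrocytes, MMP13 and PTH1R were higher, VEGFA was lower, and COL10A1, RUNX2 and IHH were among the 7 not listed. The log2 of the sum of the 3 listed was 13.06 and 13.06 in growth medium and 12.20 to 12.56 in hypertrophic medium, so that this sum went with VEGFA (-0.78) and against MMP13 (0.70) and PTH1R (1.06). Of 7 fibroblast markers, the 4 listed (COL1A1, COL3A1, S100A4 and PDGFRB) were higher, and the log2 of their sum was 17.77 and 17.64 in growth medium and 18.34 to 18.73 in hypertrophic medium. Of 4 osteoblast markers, PHEX alone was listed, and it was higher. The part of these markers in the results below was not tested.

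To find which LINC genes differed between the media, limma was fitted to all 2694 genes, and a gene was called where the Benjamini-Hochberg adjusted p was under 0.05. In hypertrophic medium 17 members rose and 26 fell, and among all listed genes 62.5% were called higher and 36.5% lower (99.0% in either direction). Nearly every listed gene was thus called, and the share of members called, 97.7%, is near that background. Because the list was chosen for a difference between these same libraries, the adjusted p-values here and below do not hold a stated error rate. They describe the difference of a gene beside the spread between libraries. The direction was divided otherwise than over the whole list: 59.1% of the members had a lower mean in hypertrophic medium, against 36.6% of all listed genes, 30.1% of the protein-coding genes and 54.0% of the 174 other listed lncRNA genes. The median log2 difference, hypertrophic minus growth medium, was -0.34 over the members, -0.37 over the other lncRNA genes, 0.61 over the protein-coding genes and 0.56 over all listed genes. In bulk RNA a change in the number of cells that hold a transcript and a change in its amount per cell cannot be told apart.

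In 43 of the 44 members no library of one medium reached the range of the other, as in 99.0% of all listed genes. Differences among the members ran from -2.27 to 1.43, with a median of 0.48 over the 18 with a higher mean and -0.54 over the 26 with a lower mean. At a difference of at least 1 in size with an unadjusted p under 0.05, 3 members were higher and 4 lower, beside 11.8% and 7.05% of all listed genes. With a difference above 2 required, 0 were higher and 1, LINC01444, was lower, beside 1.04% and 1.08%. An exact two-sided permutation of the 5 libraries cannot give a p under 0.1, and 36 members reached that value. The share of all listed genes that reached it is not given here, so this count does not set the members apart.

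**Figure D1:**
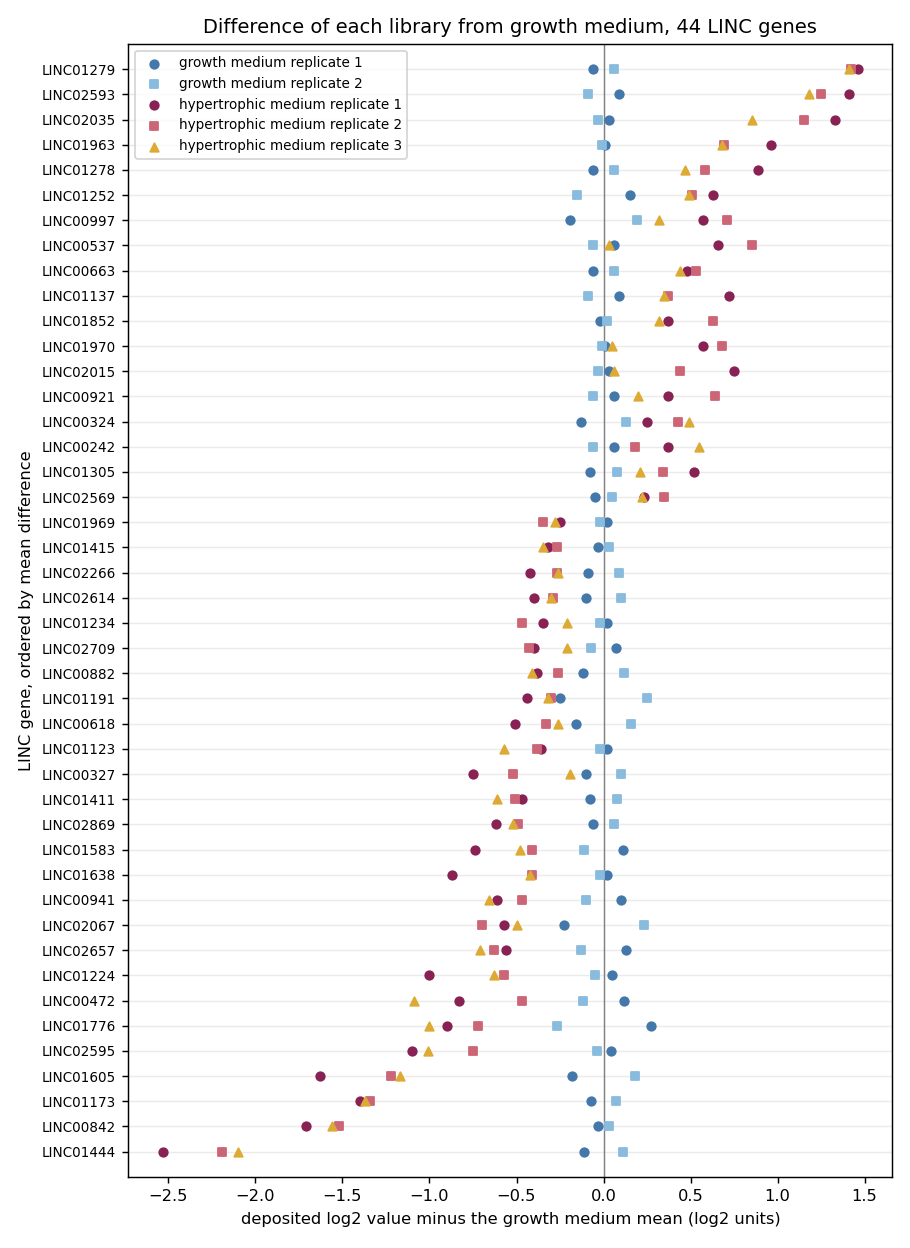
Each of the 44 LINC genes is a row, ordered by its mean difference, and the x axis gives the deposited log2 value of each library minus the growth medium mean of that gene. Blue symbols are the 2 growth medium libraries and red and yellow symbols the 3 hypertrophic medium libraries. The media overlap only in LINC00537, and the row of LINC01444 reaches farthest to the left.

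The largest increase among the listed names was that of LINC01279. Its log2 value was 7.65 and 7.77 in growth medium and 9.17, 9.13 and 9.12 in hypertrophic medium. The hypertrophic libraries lay close together and well above growth medium, with a difference of 1.43 (SE 0.14, adjusted p = 6.07e-05). RefSeq now gives this symbol as an older name of CCDC80, a protein-coding gene for a secreted protein of the extracellular matrix, at chr3:112315644-112368377 on the minus strand (GRCh37). CCDC80 under its own symbol was not in the list. LINC01279 was therefore kept as a member by its name but left out of the sequence and position counts. Without it the other 43 members had a median difference of -0.35, and 16 were called higher.

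LINC02593 showed the largest increase among members that are still annotated as non-coding. It lies at chr1:852245-856396 on the minus strand. The values were 5.94 and 5.77 in growth medium against 7.26, 7.10 and 7.03 in hypertrophic medium, a difference of 1.28 (SE 0.15, adjusted p = 0.000169). All 3 hypertrophic libraries were above both growth medium libraries by more than the spread within either medium.

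LINC02035, one of the lncRNAs that the study went on to examine beside RUNX2, is a single-exon gene of 5476 nt at chr3:122605788-122611263 on the plus strand. Its log2 value was 7.88 and 7.83 in growth medium and 9.19, 9.01 and 8.71 in hypertrophic medium. Hypertrophic replicate 1 was highest and replicate 3 lowest, and the growth medium libraries were nearly equal. The difference was 1.11 (SE 0.17, adjusted p = 0.000558), the third largest increase.

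LINC01963, at chr2:217081768-217084915, is also a single-exon gene. It rose from 8.57 and 8.55 to 9.52, 9.25 and 9.24, a difference of 0.78 (SE 0.15, adjusted p = 0.00125) that shrank to 0.43 after median centring and to 0.37 after quantile normalization, with the call kept. LINC01278 on chromosome X, the member with the most exons among the higher ones (11), rose from 7.18 and 7.29 to 8.12, 7.82 and 7.70, a difference of 0.65 (SE 0.17, adjusted p = 0.00627). The call of LINC01278 was lost without growth medium replicate 1 (0.59) and under median centring (0.30). In both genes hypertrophic replicate 1 was the highest library. It was the hypertrophic library farthest from growth medium in 52.3% of the members and in 50.2% of all listed genes.

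The promoter sequences of LINC02593 and LINC02035 are shown because these are the non-coding members with the largest increases. Both run 5′ to 3′ from 250 bases before to 50 bases after the RefSeq start (sequences from RefSeq GRCh38.p14, placed by exact match in GRCh37). LINC02593 is at chr1:855023-855322 on the minus strand and LINC02035 at chr3:122605110-122605409 on the plus strand. Capitals mark ACGTG, the core letters bound by hypoxia-inducible factors, in LINC02593. The LINC02035 window held none of the 8 letter strings searched, so no base is in capitals. This is apart from its RNA, in which the study reports the RUNX letters TGTGGT and AGTGGT. They occur there 3 and 2 times, beside medians of 2 and 1 in 359 lncRNA transcripts of 5000 to 6000 nt. The LINC02593 window has 66.7% G and C and the LINC02035 window 39.3%. The RefSeq start of LINC02593 lies 1324 bp inside the GENCODE model and that of LINC02035 428 bp before it.
LINC02593: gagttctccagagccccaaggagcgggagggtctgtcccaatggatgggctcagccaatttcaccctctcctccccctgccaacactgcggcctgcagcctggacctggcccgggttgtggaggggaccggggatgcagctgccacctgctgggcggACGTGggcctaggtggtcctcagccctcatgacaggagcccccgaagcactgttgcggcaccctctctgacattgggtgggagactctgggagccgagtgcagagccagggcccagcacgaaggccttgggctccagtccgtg
LINC02035: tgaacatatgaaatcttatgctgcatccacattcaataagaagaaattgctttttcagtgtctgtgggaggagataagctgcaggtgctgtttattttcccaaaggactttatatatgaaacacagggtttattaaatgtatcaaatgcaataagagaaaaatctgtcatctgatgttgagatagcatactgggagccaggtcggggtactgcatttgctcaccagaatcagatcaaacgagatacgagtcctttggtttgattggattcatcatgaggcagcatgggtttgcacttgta

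The other 13 members with a higher mean differed by 0.27 to 0.54. LINC00537 did not pass the test. Its values were 7.64 and 7.52 in growth medium and 8.24, 8.43 and 7.61 in hypertrophic medium, so that hypertrophic replicate 3 fell between the growth medium libraries. The difference was 0.51 (SE 0.23, adjusted p = 0.0553). Without hypertrophic replicate 3 it was 0.75 (adjusted p = 0.00295), and the adjusted p ranged from 0.000216 to 0.485 over the alternatives run.

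The 12 that passed were LINC01252, LINC00997, LINC00663, LINC01137, LINC01852, LINC01970, LINC02015, LINC00921, LINC00324, LINC00242, LINC01305 and LINC02569. LINC01137, which RefSeq now names LITATS1 and which has been described as a TGF-β-induced lncRNA that dampens TGF-β signalling, rose by 0.48 (SE 0.17, adjusted p = 0.0227). Each of these 12 calls was lost under median centring and with at least 1 library left out. In LINC01970 and LINC02015 hypertrophic replicate 3 was barely above growth medium. LINC01970 was at 4.43 and 4.40 in growth medium and 4.98, 5.09 and 4.46 in hypertrophic medium. LINC02015 was at 4.25 and 4.19, then 4.97, 4.66 and 4.28. LINC02569 showed the smallest increase, 0.27 (SE 0.09, adjusted p = 0.0141), and its direction flipped to -0.08 when each library was centred on its median.

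LINC01444 showed the largest decrease and the largest change of any member. It is a short gene of 2 exons at chr18:14969000-14970467 on the minus strand. Its log2 value was 9.86 and 10.07 in growth medium and 7.44, 7.77 and 7.86 in hypertrophic medium. The difference was -2.27 (SE 0.17, adjusted p = 1.97e-05), and the 3 hypertrophic libraries lay far below both growth medium libraries.

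LINC00842 was at 7.89 and 7.94 in growth medium and 6.20, 6.40 and 6.35 in hypertrophic medium, a difference of -1.60 (SE 0.15, adjusted p = 5.12e-05). Its model, at chr10:47011753-47174018 on the minus strand, spans the annexin gene ANXA8L1 on the same strand with shared exon bases, and the pseudogene HNRNPA1P33. Reads from these genes could have been split between them in either direction, so its value is uncertain.

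LINC01173, at chr2:235591312-235626408, is the member with the shortest exonic sequence, 331 nt. It fell from 5.66 and 5.80 to 4.33, 4.40 and 4.36, a difference of -1.37 (SE 0.11, adjusted p = 2.22e-05). The hypertrophic libraries spanned only 0.07. Among listed genes with a mean value under 5, none differed by more than this in size.

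LINC01605 fell from 7.93 and 8.28 to 6.47, 6.88 and 6.93, a difference of -1.34 (SE 0.20, adjusted p = 0.000416). LINC02595, at chrX:45706474-45710997, fell from 6.66 and 6.57 to 5.51, 5.86 and 5.61, a difference of -0.95 (SE 0.15, adjusted p = 0.000612). In both, hypertrophic replicate 1 was the lowest library.

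The promoters of LINC01444 and LINC01173 are shown in the same form as above. They are those of the largest decrease and of the largest decrease among members with a mean value under 5. LINC01444 is at chr18:14970418-14970717 on the minus strand and held none of the strings searched. LINC01173 is at chr2:235591062-235591361 on the plus strand. Capitals mark, from left to right, GGAATG read on the opposite strand (TEAD letters), TGANTCA (AP-1 letters) and TGTGGT read on the opposite strand (RUNX letters).
LINC01444: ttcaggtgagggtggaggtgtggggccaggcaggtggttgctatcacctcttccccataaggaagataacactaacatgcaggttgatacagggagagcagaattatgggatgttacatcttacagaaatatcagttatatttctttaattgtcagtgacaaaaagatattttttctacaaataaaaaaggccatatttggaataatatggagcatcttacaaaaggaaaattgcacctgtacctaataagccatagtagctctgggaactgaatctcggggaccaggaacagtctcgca
LINC01173: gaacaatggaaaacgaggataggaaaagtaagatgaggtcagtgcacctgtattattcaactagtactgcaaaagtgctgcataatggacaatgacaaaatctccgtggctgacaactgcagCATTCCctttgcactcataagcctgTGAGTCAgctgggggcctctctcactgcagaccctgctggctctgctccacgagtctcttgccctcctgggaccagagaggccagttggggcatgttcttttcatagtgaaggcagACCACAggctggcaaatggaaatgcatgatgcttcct

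**Figure D2:**
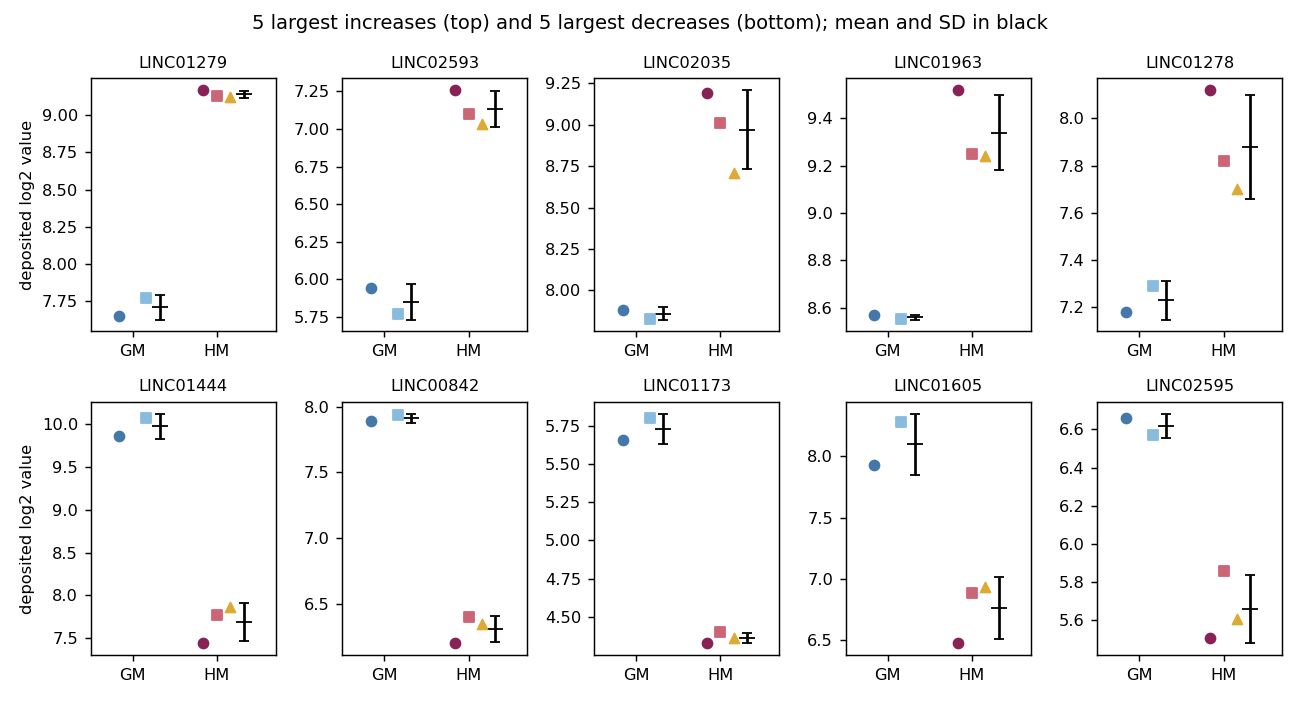
Deposited log2 value of each library for the 5 LINC genes with the largest increases (top row) and the 5 with the largest decreases (bottom row), with growth medium (GM, 2 libraries) on the left and hypertrophic medium (HM, 3 libraries) on the right of each panel. Symbols are single libraries (circle, square and triangle for replicates 1, 2 and 3), the black marks give the mean and SD, and the y axes differ between panels and do not start at 0. In every panel the libraries of the media are apart, by the most in LINC01444.

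The other 21 decreases ran from -0.29 to -0.87. LINC00472, which overlaps OGFRL1 on the opposite strand and has been described as low in breast tumours, had the highest mean value of any member. Its exonic sequence is long, 25534 nt, and the values are not known to be corrected for length. LINC00472 fell from 11.56 and 11.31 to 10.60, 10.97 and 10.35, a difference of -0.80 (SE 0.18, adjusted p = 0.00283). LINC01776 fell by 0.87 (SE 0.16, adjusted p = 0.00119) and LINC01224 by 0.73 (SE 0.18, adjusted p = 0.00363). LINC02657, now named LASTR for its association with the splicing factor SART3, fell from 5.30 and 5.03 to 4.61, 4.53 and 4.45. LINC00941, which has been studied in epidermal differentiation and in several cancers, fell from 7.10 and 6.90 to 6.38, 6.52 and 6.34, and its call was lost without growth medium replicate 1 (-0.48). In these members too, every hypertrophic library was below both growth medium libraries.

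Decreases of 0.44 to 0.59 were found for LINC02067, LINC01638, LINC01583, LINC02869, LINC01411, LINC00327 and LINC01123. The call of LINC02067 was lost without growth medium replicate 2 (-0.36), and those of LINC01583, LINC00327 and LINC01123 were also lost with at least 1 library left out. Decreases of 0.29 to 0.37 were found for LINC00618, LINC01191, LINC00882, LINC02709, LINC01234, LINC02614, LINC02266, LINC01415 and LINC01969. All of these calls except that of LINC01969 were lost under at least 1 alternative. Without growth medium replicate 2, LINC00618 was at -0.21 and LINC00882 at -0.23, and LINC01415 was at -0.08 under quantile normalization. LINC01969 is now named TILAM, a lncRNA known from hepatic stellate cells as TGF-β-induced and acting on matrix genes, and in RefSeq order it lies next to the collagen gene COL1A1. LINC01969 was at 3.55 and 3.50 in growth medium and 3.27, 3.18 and 3.24 in hypertrophic medium, whereas COL1A1 went from 16.70 and 16.47 to 16.90, 17.63 and 17.14. LINC01969 differed by -0.29 (SE 0.07, adjusted p = 0.00301) and COL1A1 by 0.64 (SE 0.21, adjusted p = 0.014), a call that was lost under median centring (0.29). TMEM92, the listed neighbour on the other side, fell with LINC01969, by 0.36 (SE 0.13, adjusted p = 0.0252).

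The members had low values within the list: the median of their mean values was 5.44, against 8.40 over all listed genes and 6.09 over the other lncRNA genes. Size of difference rose with value in both. As the kind of log2 transformation is not given, sizes at different values may not be comparable. Of the 18 members with a mean value under 5, 5 were higher and 13 lower, beside 115 and 141 of all listed genes of that band, and the median size was 0.36 beside 0.37. Between 5 and 7, 7 members were higher and 8 lower (368 and 287 of all), with a median size of 0.53 beside 0.59. At 7 or more, 6 were higher and 5 lower (1224 and 559 of all), with 0.78 beside 0.76. At a like value, then, the size of the members' differences was close to that of the list, as a description without a test.

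**Figure D3:**
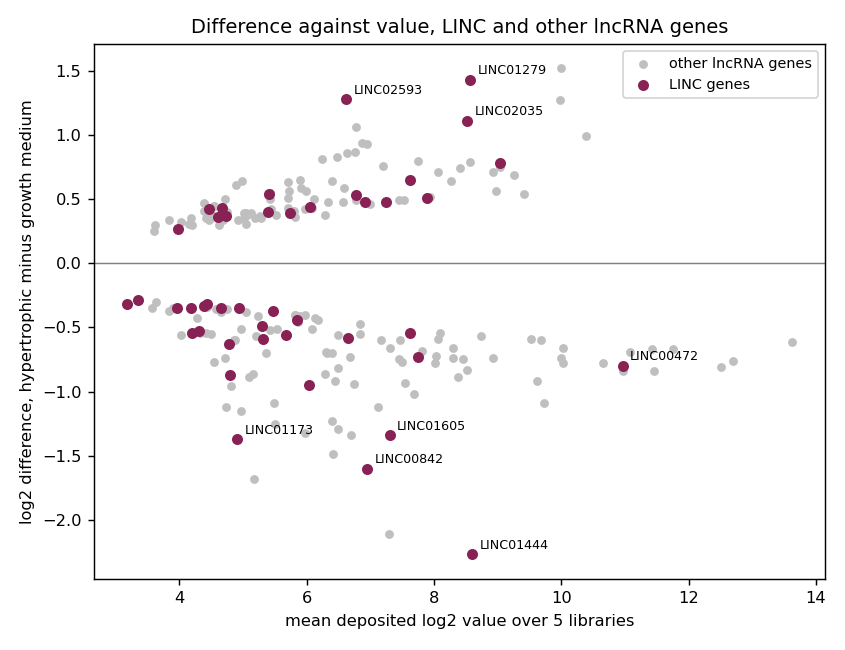
Log2 difference between the media (y axis, hypertrophic minus growth medium) against the mean deposited log2 value over the 5 libraries (x axis), for the 44 LINC genes (red) and the 174 other listed lncRNA genes (grey). The empty band around 0 reflects the list, which holds no gene with a difference under 0.21 in size, and LINC01444 is the lowest point.

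To see where the members lie, their symbols were matched to GENCODE models on GRCh37. Of the 44, 39 matched a model and 38 of these were non-coding, spread over 18 chromosomes with LINC01279 counted. Chromosome 3 held 6 members, of which 3 were higher and 3 lower. The single-exon members were LINC01963, LINC00997 and LINC02035, and all 3 rose. Among the members that fell, 21 of 23 had a transcript with at least 3 exons, and among those with a higher mean 9 of 15. The name intergenic did not hold for 5 of the 38 models, which overlapped a protein-coding gene: LINC00472 (OGFRL1), LINC01278 (SPIN4), LINC00921, LINC00842 and LINC00941 (CAPRIN2). LINC02709 also overlapped the listed lncRNA gene SBF2-AS1, which fell by 0.69.

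Whether members moved with the protein-coding gene next to them was examined for the nearest such gene on each side and any overlapping one. A listed protein-coding neighbour lay within 100 kb of 8 of the 38 members (21.1%), beside 36.6% of the other lncRNA genes and 24.6% of all listed genes. In 7 of these 8 pairs both genes went the same way (87.5%), near the 79.6% of such pairs for other lncRNA genes and 82.3% for all listed genes. Since listed genes were chosen for a difference and most of them rose, these shares are descriptions.

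LINC02593 and SAMD11, a gene for a nuclear protein with a SAM domain, start 2907 bp apart on opposite strands. SAMD11 rose from 9.91 and 10.04 to 11.42, 11.47 and 11.50, a difference of 1.48 (SE 0.12, adjusted p = 2.22e-05). LINC02035 ends 16666 bp from SEMA5B, a semaphorin gene on the opposite strand. SEMA5B rose from 5.87 and 5.80 to 7.35, 7.55 and 7.42, a difference of 1.60 (SE 0.15, adjusted p = 4.99e-05), beside 1.11 for LINC02035. In both pairs all hypertrophic libraries of both genes were above growth medium.

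LINC01252 lies 59305 bp from ETV6, an ETS family repressor. LINC01252 rose from 5.24 and 4.93 to 5.72, 5.59 and 5.57, a difference of 0.54 (SE 0.14, adjusted p = 0.00449), and its call was lost without growth medium replicate 2 (0.39). ETV6 rose from 9.82 and 9.74 to 10.94, 10.62 and 10.44, a difference of 0.89 (SE 0.16, adjusted p = 0.000975). The exception among the pairs was LINC01963, which rose, while MARCHF4, a membrane-bound ubiquitin ligase gene 37673 bp away, fell from 6.37 and 6.10 to 5.08, 5.22 and 5.01, a difference of -1.13 (SE 0.14, adjusted p = 0.00019).

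Among the pairs that fell, LINC02869 lies 14646 bp beyond TGFB2, which encodes the ligand TGF-β2. LINC02869 fell from 4.46 and 4.57 to 3.89, 4.03 and 4.0, a difference of -0.54 (SE 0.09, adjusted p = 0.000797). TGFB2, at a far higher value, fell from 14.39 and 14.32 to 13.58, 13.58 and 13.42, a difference of -0.83 (SE 0.11, adjusted p = 0.000306). Both are on the same strand, and in both the media were apart by more than the spread within a medium.

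LINC01191 lies 8123 bp from ACTR3, a subunit of the actin-branching Arp2/3 complex. LINC01191 was at 3.92 and 4.42 in growth medium and 3.73, 3.87 and 3.85 in hypertrophic medium (difference -0.35, SE 0.14, adjusted p = 0.0281). Growth medium replicate 1 was only just above the hypertrophic libraries. Without growth medium replicate 2 the difference was -0.11, and the call was lost. It was also lost without each hypertrophic library in turn, under quantile normalization and without the mean-variance trend. ACTR3 fell from 14.64 and 14.70 to 13.93, 13.95 and 14.23, a difference of -0.63 (SE 0.13, adjusted p = 0.00165).

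The last pairs are genes that share bases. OGFRL1, which overlaps LINC00472 on the opposite strand, fell from 11.22 and 11.24 to 10.55, 10.18 and 10.30, a difference of -0.89 (SE 0.14, adjusted p = 0.000581). The library kit marked strand, but the strand setting of the counting is not given in the sources used here, so reads of these genes may not have been told apart. ANXA8L1, on the strand of LINC00842, went from 6.84 and 6.56 to 5.76, 5.73 and 6.54, a difference of -0.69 (SE 0.25, adjusted p = 0.0206), and its hypertrophic replicate 3 was close to growth medium. HNRNPA1P33, also inside LINC00842, fell by 1.92 (SE 0.19, adjusted p = 6.02e-05).

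**Figure D4:**
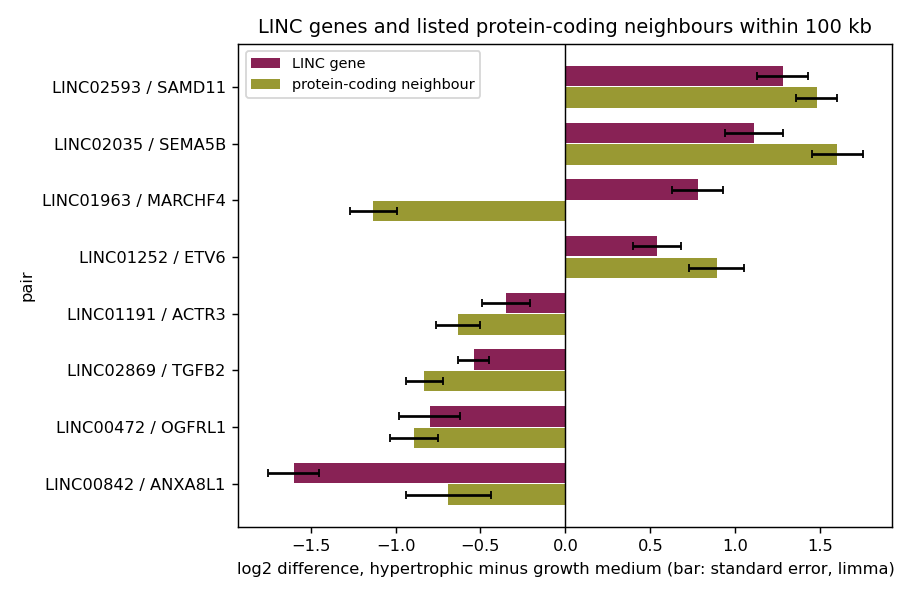
Log2 difference between the media (x axis, hypertrophic minus growth medium) for the 8 LINC genes with a listed protein-coding neighbour within 100 kb (red bars) and for that neighbour (olive bars). Error bars are standard errors from limma, and the bars of a pair point the same way in all pairs except LINC01963 and MARCHF4.

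At any distance, 13 of the 38 matched members had a listed nearest protein-coding neighbour and 10 of the 13 pairs went the same way (76.9%, beside 78.7% for all listed genes). LINC01444 and ANKRD30B, 114334 bp apart, differed by -2.27 and -1.86. LINC01173 fell with SH3BP4 (-0.73). LINC00242 rose with DLL1 (0.61), a Notch ligand gene, though the calls of LINC00242 and DLL1 were lost under median centring. LINC01776 fell while DPYD, the gene for an enzyme of pyrimidine breakdown, rose by 0.78, and LINC01638 fell while MN1 rose by 0.99. LINC01605, placed only by RefSeq order, fell while its listed neighbour ZNF703 rose by 0.54 (SE 0.22, adjusted p = 0.0371), with libraries that overlap between the media and a call that was lost under median centring.

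To describe what the promoters share, 8 letter strings known to be bound by transcription factors were searched on both strands of the RefSeq windows. Windows were held for 32 of the members without LINC01279, 35 windows in all because LINC01415 and LINC01191 have several starts. The AP-1 letters TGANTCA, bound by FOS and JUN proteins, were in 8 of the 35 windows (22.9%), beside 10.4% of 12917 lncRNA windows and 7.71% of all 35116. They were in 7 of 24 windows of members that fell (29.2%) and 1 of 11 of those with a higher mean (9.09%). These windows belong to 6 of 21 genes and 1 of 11 genes, and the split was not tested.

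Matches, at most 1 for each gene, are shown with 10 bases on each side, in capitals, 5′ to 3′ on the strand of the gene, because their share in the member windows was above that in other windows. LINC02709 also held a match, too near the edge of its window to be shown this way. All those shown except LINC00242 belong to members that fell. They lie on the minus strand for LINC00242, LINC01415 and LINC02657 and on the plus strand for the others. The positions are chr6:170199129-170199155 for LINC00242, chr18:53448951-53448977 for LINC01415, chr14:97409879-97409905 for LINC00618, chr5:173763173-173763199 for LINC01411 and chr10:5638124-5638150 for LINC02657, and that of LINC01173 is in the promoter shown above.
LINC00242: ttatggctgaTGATTCAtgaagacaga
LINC01415: atgcatgaaaTGATTCAgaaaggtaaa
LINC00618: cattatgactTGACTCAgctgggaacc
LINC01411: gcactaccctTGAGTCAtcctagcccc
LINC02657: gaattagaggTGAGTCAgatgccttcg

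For the remaining strings the shares over all members were closer to those in other windows. The RUNX letters TGTGGT were in 14.3% of member windows, beside 16.2% of lncRNA windows and 13.1% of all, and AGTGGT in 8.57%, beside 12.1% and 10.3%. GGAATG was in 11.4% (17.1% and 14.0%) and ACGTG in 22.9% (18.6% and 21.4%). By direction, AGTGGT went the way of the AP-1 letters, in 0 of 11 windows of members with a higher mean and 3 of 24 of those that fell (12.5%). The others went the opposite way, with TGTGGT in 2 of 11 (18.2%) and 3 of 24 (12.5%), GGAATG in 3 of 11 (27.3%) and 1 of 24 (4.17%), and ACGTG in 4 of 11 (36.4%) and 4 of 24 (16.7%). Such counts are small, and none of these splits was tested. The cyclic AMP response letters TGACGTCA, the consensus palindrome of the glucocorticoid receptor and the direct repeat with a spacer of 4 bases of the thyroid hormone receptor were in 0 of 35 windows. The last 2 are also held by under 0.1% of all windows. A match is a description of letters and not of binding.

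The split of the calls depended on the scale. Of the listed genes 1707 rose and 987 fell, so the list median can be higher in hypertrophic medium for that reason alone. A list chosen for a difference cannot supply a neutral centre, and quantile normalization over it has the same limit. A call lost under either therefore does not decide whether the gene rose. When each library was centred on its median over the listed genes, every difference dropped by 0.35, and 4 members were called higher and 26 lower, beside 31.4% and 36.6% of all listed genes. The lower calls stayed at 26, so that the share of lower among the called members went from 60.5% to 86.7% as higher calls were lost. The same share went from 54.3% to 87.0% in the other lncRNA genes and from 36.9% to 53.9% over all listed genes. The 4 that stayed higher were LINC01279, LINC02593, LINC02035 and LINC01963. Quantile normalization left 15 higher and 24 lower, beside 46.7% and 35.8%. With so few libraries, single libraries also counted: higher calls were lost without growth medium replicate 1 and without growth medium replicate 2. The loss among all listed genes is not given here, so it cannot be said to be particular to the members. Each of these 2 fits leaves 1 growth medium library, which is assumed to vary like the others.

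The calls of 17 members held, in the same direction, in every alternative that could include them. These were LINC01279, LINC02593, LINC02035 and LINC01963 among those that rose. Among those that fell they were LINC01444, LINC00842, LINC01173, LINC01605, LINC02595, LINC01776, LINC00472, LINC01224, LINC02657, LINC01638, LINC02869, LINC01411 and LINC01969. The alternatives were median centring, quantile normalization, the replicate block, no mean-variance trend, a filter on a mean value of at least 6, and each library left out. Median centring lowered every difference, so it worked against higher calls and not against lower ones. The share of all listed genes that held in every alternative is not given here, so the count is not a trait of the members.

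**Figure D5:**
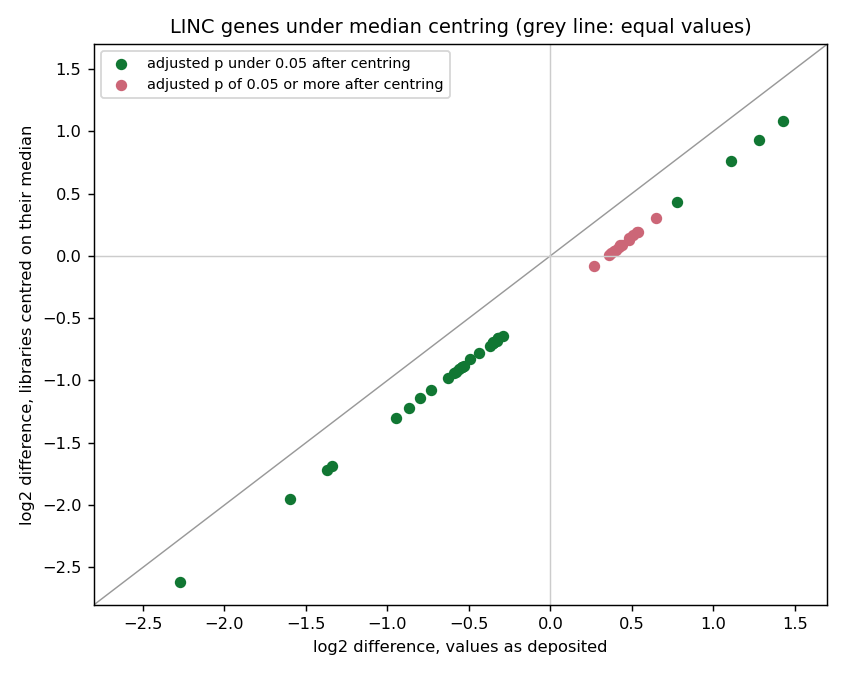
Log2 difference of the 44 LINC genes with libraries centred on their median (y axis) against the difference in the deposited values (x axis). The grey diagonal marks equal values, green points have an adjusted p under 0.05 after centring and red points do not. All points lie below the diagonal by 0.35 and 4 green points remain on the right.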

How the data were processed

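Total RNA libraries (TruSeq Stranded Total RNA Gold) of TC28a2 cells, 2 in growth and 3 in hypertrophic medium, were sequenced by the authors. The authors' methods name HISAT2, hg19 with NCBI annotation and StringTie, removal of genes with a zero count, log2 transformation and RLE normalization, and the DESeq2 Wald test. The submitters' processing notes name other tools (cutadapt 1.18, TopHat2 2.0.13, Cuffdiff 2.2.1) and the rat build rn5. The files hold human symbols, and which account applies to them was not settled. The deposited values are log2, 1 per gene and library, for the same 2694 genes. The kind of log2 transformation is not given in the sources used here.

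Libraries were grouped by the labels. limma 3.58.1 (R 4.3.3, lmFit, eBayes with trend, no block) was fitted to all 2694 genes, with Benjamini-Hochberg adjustment, and was tested on simulated data. Members and lists were chosen with earlier results of these data known. Every member was named, with library values for the 5 largest changes in each direction, LINC02035, LINC00537, and members with a listed coding neighbour within 100 kb. Library values of LINC01970, LINC02015, LINC02657, LINC00941 and LINC01969 were added after they were seen. Gene models were from GENCODE 44 lifted to GRCh37, and classes and promoters from RefSeq GRCh38.p14. Positions in the text are GRCh37. The labels do not say whether replicate numbers pair the libraries. The correlation of replicate 1 minus 2 between media was -0.0253, which cannot exclude a shared origin. Of the AP-1 matches, 1 further window is not reported here.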

Additional observations from a re-analysis of the deposited data

How the results depend on the processing

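With 2 and 3 libraries of unknown depth, and genes that were listed for a difference, these calls are limited to direction and size on the deposited scale. Of the members, 17 were called higher and 26 lower. Median centring left 4 higher, and its value for LINC02569 reversed to -0.08 under a shift of 0.35 that applies to every gene. That shift can come from the make-up of the list, in which more genes rose than fell, so the lost calls decide nothing. A filter on a mean value of at least 6, which tests 18 members, gave 9 higher and 8 lower. A difference of at least 1 with an unadjusted p under 0.05 gave 3 and 4, and one above 2 gave 0 and 1. Leaving out 1 library gave 7 to 16 higher and 19 to 25 lower. Listed coding neighbours numbered 8 within 100 kb and 13 at any distance. The replicate block, for numbers not known to mark a shared origin, gave 16 higher and 26 lower. It called LINC00537 at 0.75 and lost LINC00324 at 0.34 and LINC00242 at 0.28. Without a mean-variance trend 14 were higher and 25 lower. For the filter, the left-out libraries, the block and the fit without a trend, shares over all listed genes are not given here. Those member counts can therefore not be set against the list.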

Other observations

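Beyond the nearest coding gene, other listed genes lay within 100 kb of members, and they are named here after their values were seen. LINC00324, which rose by 0.39, lies 64118 bp from PER1, a circadian clock gene, which rose by 1.03 (SE 0.16, adjusted p = 0.000482 in limma), and 57078 bp from VAMP2, a vesicle fusion gene, which rose by 0.52 (SE 0.18). LINC01970, which rose by 0.43, lies 28210 bp from SECTM1, which rose by 1.44 (SE 0.19, adjusted p = 0.000269). LINC02569, at 0.27, lies near PRR3 (0.66) and PPP1R10 (0.57). LINC02266, which fell by 0.32, lies 31984 bp from the pseudogene RTN3P1, which rose by 0.36.

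The other listed lncRNA genes were also counted by kind of name, on the deposited scale. Of 18 host genes of small RNAs, 17 had a lower mean in hypertrophic medium, with a median difference of -0.72. All 5 divergent transcripts were lower, with a median of -0.93. Of 36 genes with other names, 25 had a lower mean, with a median of -0.49. Of 66 genes with antisense names, 39 had a higher mean, with a median of 0.38, and of 49 genes with LOC numbers 29 had a higher mean, with a median of 0.34. The direction of the last kinds depended on the scale: after median centring, 7 antisense names were called higher and 27 lower, and 5 LOC numbers higher and 20 lower. The median of this list is not a neutral centre, so centring does not settle their direction. All these counts are descriptions of a list chosen for a difference, with no test between the kinds.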
